A study of Mus musculus with 8 samples.

Results

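Synaptic vesicle and release machinery was followed through 36 genes, chosen by name for their part in storing transmitter in vesicles, docking the vesicles at the presynaptic membrane and fusing them with it. All 36 were found among the 55573 gene IDs of the count files, and all 36 passed the filter on low counts that left 18205 genes for testing. RNA had been taken from cells sorted for red fluorescence from cortex of mice with a PV-Cre allele, which drives Cre recombinase from the parvalbumin locus, and a tdTomato reporter. Controls, called WT, were PV-Cre/tdTomato mice with a Dnmt1 wild-type gene. Mice called KO were PV-Cre/tdTomato/Dnmt1 loxP2 animals, in which Cre removes exons 4 and 5 of Dnmt1, the maintenance DNA methyltransferase. Both genotypes thus carried Cre and the reporter, on a C57BL/6 background to which the loxP2 allele came from a B6;129Sv line. Mice were 6 or 18 months old, which gave 4 groups (WT and KO at each age) of 2 libraries each. The libraries are technical replicates of cells pooled from 6 WT and 6 KO mice, so the p-values below measure the spread between libraries of a pool and not between animals. Each group is then 1 pool, and differences between pools and between groups cannot be told apart. It is a point not given in the sources used here whether those mice are counted per age.

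Transmitter release runs on a small set of protein families. Vesicles carry synaptic vesicle glycoproteins, synaptophysin, synaptogyrins and synapsins, and a vesicle SNARE that zips up with the membrane SNAREs to fuse the bilayers. Synaptotagmins sense calcium and complexins hold the SNARE complex ready, while NSF and its SNAP adaptors take spent complexes apart. Bassoon, piccolo, RIM, ELKS, liprin-alpha and Munc13 build the active zone where vesicles are primed, and neurexins link it to the postsynaptic cell. Fast-spiking parvalbumin interneurons are known for tightly timed release, with Syt2, Cplx1 and Vamp1 prominent at their terminals.

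Promoter sequence is shown for 5 members because Dnmt1 acts on CG dinucleotides and because these members stand for the different courses described below. Syt1 and Unc13a were highest in WT at 6 months and low at 18 months, Syt11 and Sv2a ran the other way, and the Syn1 window holds a pair of motifs known from neuronal promoters. Each sequence is the 250 bases before the gene's start in RefSeq on GRCm38.p6, written along the gene's strand. In the first 4, capitals mark every CG dinucleotide. They are Syt1 at chr10:109010976-109011225 on the minus strand, Unc13a at chr8:71671758-71672007 on the minus strand, Syt11 at chr3:88772600-88772849 on the minus strand and Sv2a at chr3:96180977-96181226 on the plus strand. The Syt11 start in RefSeq lies 2565 bases inside the GENCODE gene used for counting.
Syt1: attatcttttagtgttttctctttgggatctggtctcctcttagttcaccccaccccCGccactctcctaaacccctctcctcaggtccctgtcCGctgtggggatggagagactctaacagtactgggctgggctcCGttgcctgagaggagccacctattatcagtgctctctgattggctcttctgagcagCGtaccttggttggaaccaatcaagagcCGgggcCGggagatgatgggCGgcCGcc
Unc13a: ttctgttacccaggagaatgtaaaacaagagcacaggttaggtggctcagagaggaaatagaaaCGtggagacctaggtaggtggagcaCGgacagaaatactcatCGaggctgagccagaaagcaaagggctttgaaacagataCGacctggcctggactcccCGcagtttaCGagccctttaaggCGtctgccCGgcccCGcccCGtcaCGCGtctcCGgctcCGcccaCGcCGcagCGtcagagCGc
Syt11: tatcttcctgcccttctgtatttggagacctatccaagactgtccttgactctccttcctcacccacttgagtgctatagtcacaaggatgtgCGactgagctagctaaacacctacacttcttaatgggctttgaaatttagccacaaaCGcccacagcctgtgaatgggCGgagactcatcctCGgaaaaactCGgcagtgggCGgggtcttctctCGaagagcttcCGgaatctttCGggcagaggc
Sv2a: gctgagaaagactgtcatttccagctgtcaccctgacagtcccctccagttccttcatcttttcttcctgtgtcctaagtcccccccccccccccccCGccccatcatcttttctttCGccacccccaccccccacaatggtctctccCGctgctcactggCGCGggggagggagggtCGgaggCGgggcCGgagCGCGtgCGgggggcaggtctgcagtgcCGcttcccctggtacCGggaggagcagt

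These 4 windows hold 8, 18, 9 and 13 CG dinucleotides in the order printed. A promoter was found for 28 of the 36 members, and Syt7, Vamp2, Snap25, Syngr3, Syn3, Syt4, Nrxn2 and Rims2 had no entry. Over the 28 the median was 16 CG dinucleotides, from 2 in Nrxn3 to 32 in Bsn, beside a median of 6 and an upper quartile of 16 over all 32851 promoters of the table. The windows of Nrxn3, Cplx2 and Syt11 lie 71628, 68793 and 2565 bases from the GENCODE start of the counted gene, so they may not be the promoter of the transcripts counted, and the lowest of the other 25, all within 1000 bases, was 5 in Rph3a. Syt11 and Sv2a, whose RNA was higher at 18 months than at 6 months in WT, thus had counts between those of Syt1 and Unc13a, whose RNA was lower. Methylation of these windows was not analysed here.

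The Syn1 window, at chrX:20920919-20921168 on the minus strand, is printed with capitals on the left-hand site of RE1, the element bound by the neuronal gene repressor REST, and on a cAMP response element.
Syn1: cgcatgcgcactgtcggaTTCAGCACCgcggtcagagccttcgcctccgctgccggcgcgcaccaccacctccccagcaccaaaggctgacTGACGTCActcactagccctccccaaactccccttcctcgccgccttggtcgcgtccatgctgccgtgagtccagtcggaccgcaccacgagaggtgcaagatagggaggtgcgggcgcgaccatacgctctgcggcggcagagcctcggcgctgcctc

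Both strands were searched for exact letters. The RE1 left-hand site TTCAGCACC lay in 2 of 28 members, Syn1 and Ppfia3, and in 0.30% of all promoters. The right-hand site GGACAGCG was in 0 of 28 and in 0.99% of all promoters. The cAMP response element TGACGTCA occurred in Syn1 alone among the 28, and in 1.55% of all promoters. A GC box, GGGCGG, was found in 19 of 28 members and in 32.74% of all promoters, and it can overlap CG dinucleotides. These matches are letters in a window, with no measurement of binding.

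Library totals ran from 6008175 to 13551218 counts, and the 2 libraries of a group had Pearson correlations of 0.976 to 0.992 across genes on the log2 CPM scale. CPM here means reads after each library's tested genes were brought to a common total with TMM, which allows for differences in RNA composition. Dnmt1 itself had 97.9 and 104 CPM in WT and 77.2 and 75.2 CPM in KO at 6 months (1.32-fold lower, edgeR adjusted p = 1.00e-04), and 80.8 and 81.1 against 74.3 and 76.6 CPM at 18 months, where the difference was not called (adjusted p = 0.281). Counts over the whole gene do not isolate the deleted exons. Against the labelled cell type, Pvalb had between 0 and 2 reads per library in all 8 libraries, and Lhx6 of the parvalbumin interneuron list stayed at or below 0.344 CPM. Other genes of that list, which are not exclusive to these cells, were present in the WT libraries at 6 months, with 125 and 132 CPM of Gad1, 167 and 146 CPM of Sox6, 102 and 103 CPM of Erbb4, 65.7 and 57.8 CPM of Kcnc1 and 43.3 and 41.6 CPM of Nxph1. The rest of the list was lower in these libraries. Gad2 had 22.7 and 25.5 CPM, Slc32a1 11.5 and 12.5 and Kcnc2 11.9 and 6.82. Tac1 (0.658 and 1.46 CPM), Cox6a2 (0.494 and 0.650) and Pthlh (0 and 0.487) were near the floor. The astrocyte marker Slc1a2 had between 2125 and 5390 CPM. The genes are accordingly described as RNA of the sorted pools. The noncoding gene Gm26917 took 9.97% and 9.29% of counts in the younger WT libraries, against 1.67% and 1.82% in the older KO libraries, and mitochondrial ribosomal RNA took 0.672% to 6.15%. Without Gm26917 and the mitochondrial genes the counts of called members given below were the same, except for 16 in place of 17 lower at 18 months in KO. In bulk RNA, fewer cells of a type and less RNA per cell cannot be told apart.

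Release genes had their highest group mean in WT at 6 months in 29 of 36 cases, in KO at 6 months in 5 (Vamp2, Cplx2, Sv2b, Rab3c and Rph3a) and in WT at 18 months in 2 (Syt11 and Sv2a). None peaked in KO at 18 months, the group that held the lowest mean of 24 members. WT at 18 months was lowest for another 10, and WT at 6 months for Syt11 and Sv2a. The order of group means was not counted over all tested genes, so these counts have no background share beside them. In the plot of levels by library WT at 6 months stands highest in most panels, while the order of the other groups varies between genes.

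**Figure D1:**
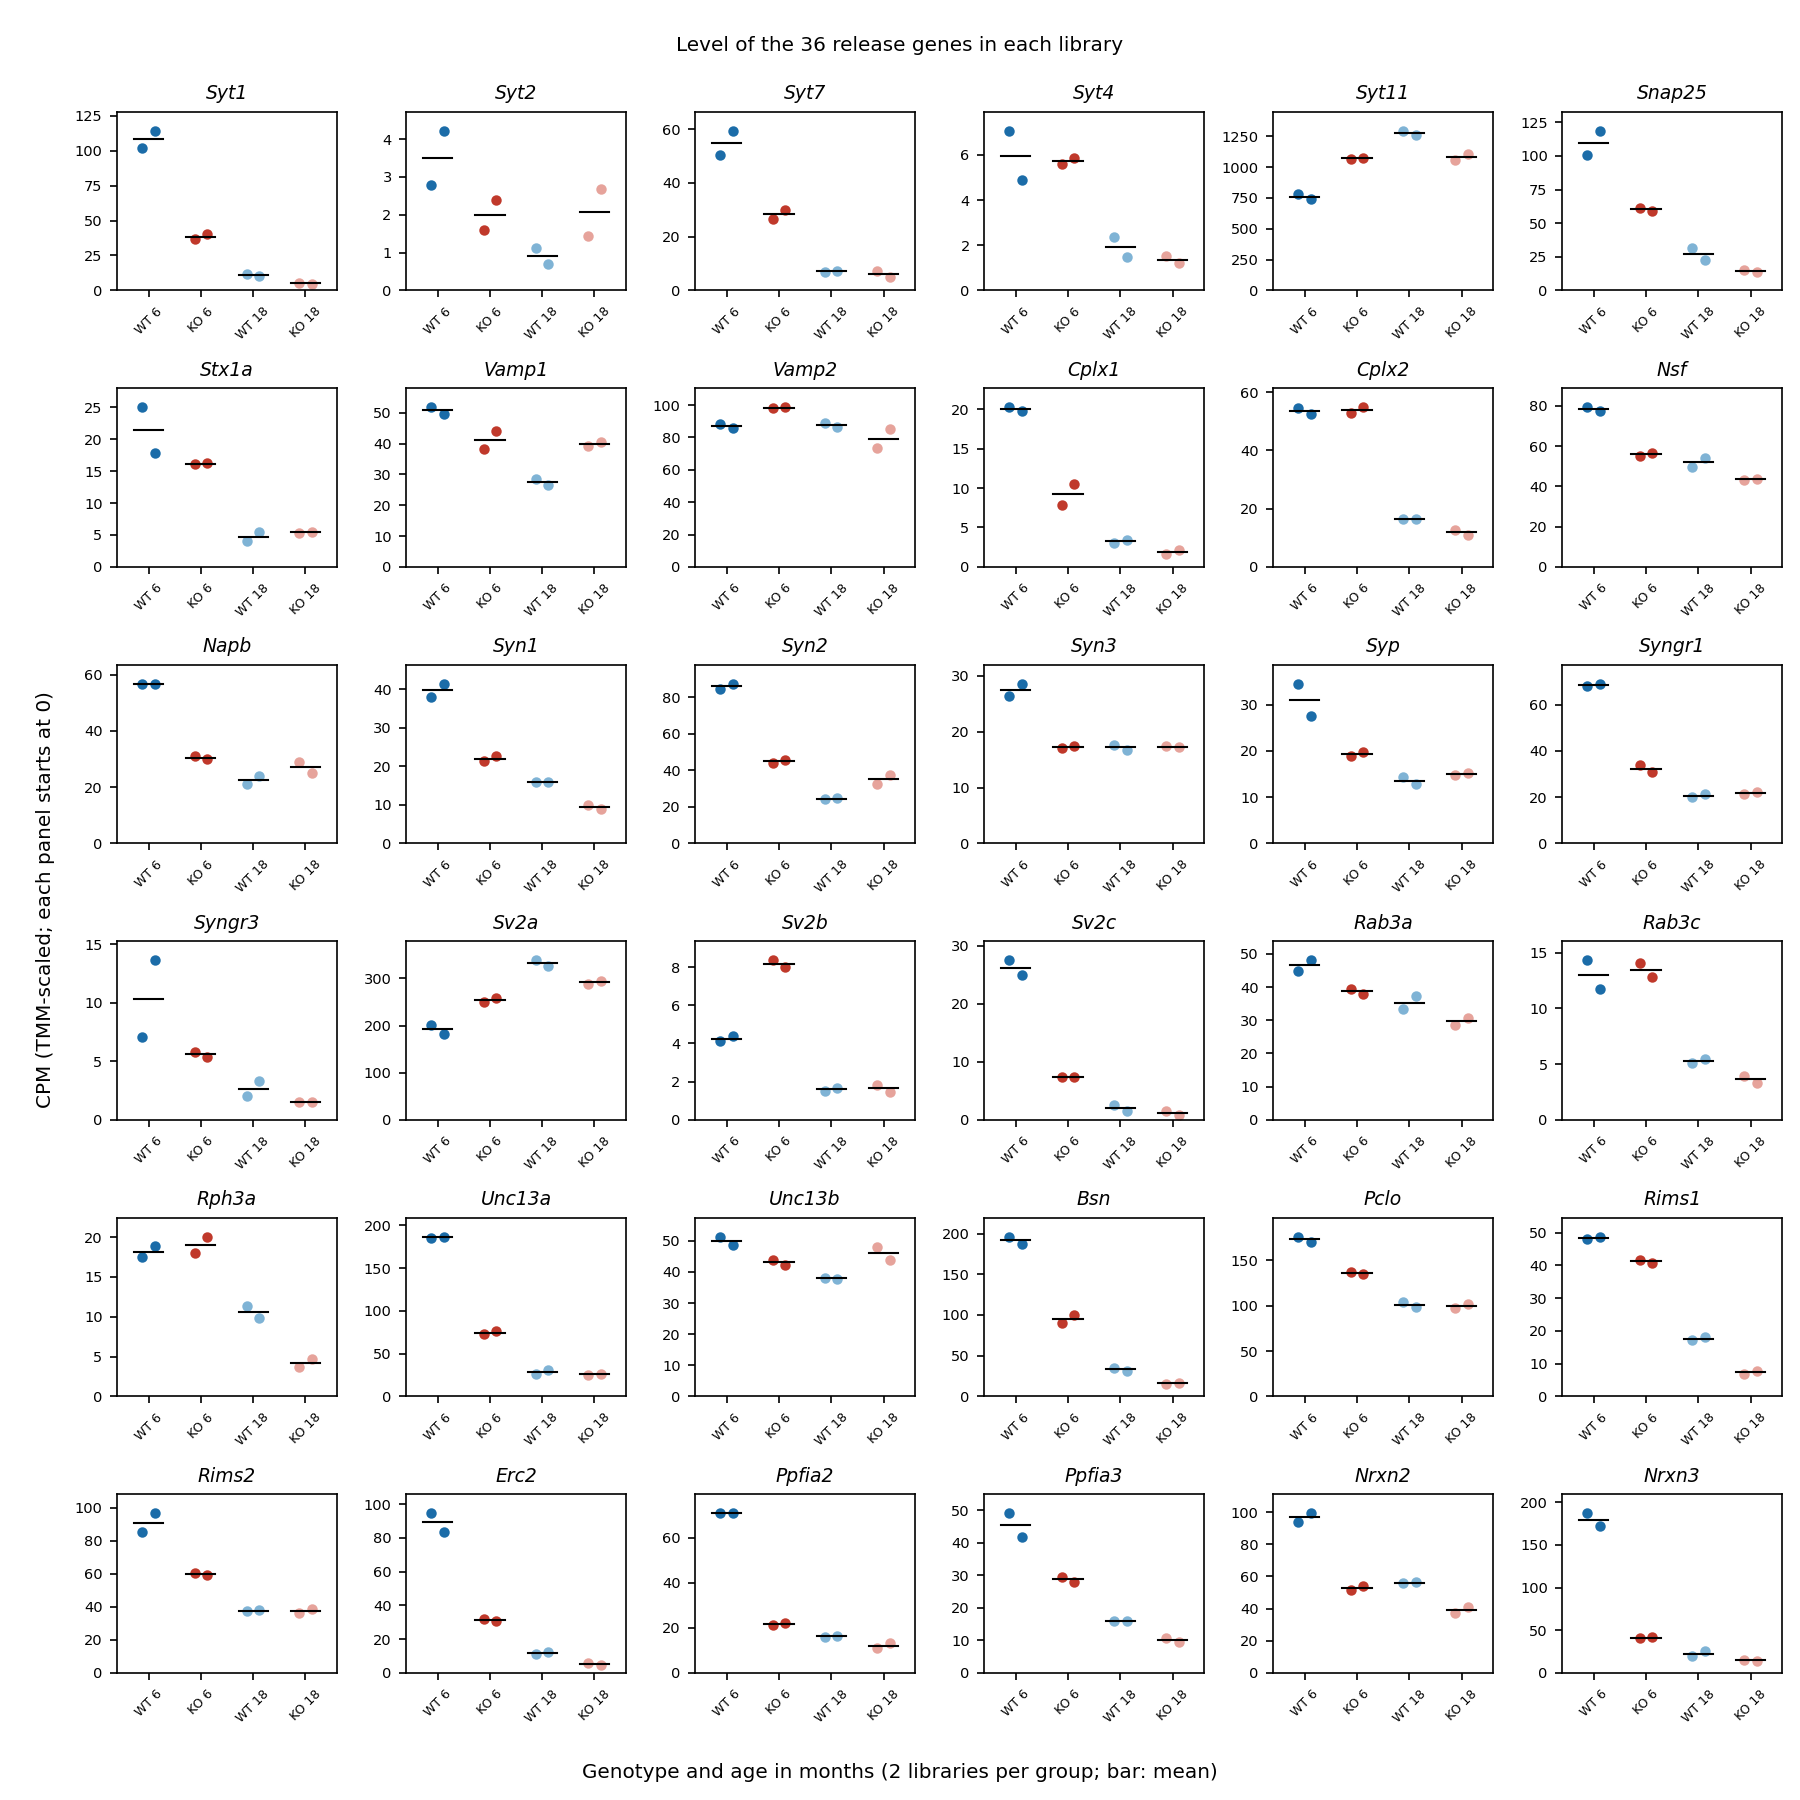
CPM (TMM-scaled) of each of the 36 release genes in each library, by genotype and age in months; points are libraries and bars the mean of 2, and every axis starts at 0. In most panels the WT points at 6 months are the highest, as for Syt1 at 102 and 114 CPM, while Syt11 and Sv2a are highest in WT at 18 months.

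Compared per length of exon, so that genes can be set beside each other, Syt11, Sv2a, Vamp2 and Rab3a were the 4 highest members after ranking group means in WT at 6 months, and they held ranks 1 to 4 in each of the other 3 groups as well. Syt11 had 146 ± 5.26 CPM per kb (SD, n = 2) in WT at 6 months and Syt1 13.0 ± 1.03, which put Syt1 at rank 9 of the 36. At 18 months Syt1 stood at rank 28 in WT and 30 in KO. Syt2 ranked last, at 36, in every group but KO at 18 months, where it ranked 34, on 9 to 31 reads per library.

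The make-up of release gene RNA shifted with these levels. Syt11 and Sv2a together made up 40.3% and 38.6% of the summed CPM per kb of the 36 genes in the WT libraries at 6 months, and KO reached 59.2% and 59.0%. At 18 months they made up 74.2% and 73.3% in WT and 73.7% and 73.6% in KO. The 3 ranges at 6 months in WT, at 6 months in KO and at 18 months were separate, and the 2 genotypes overlapped at 18 months.

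**Figure D2:**
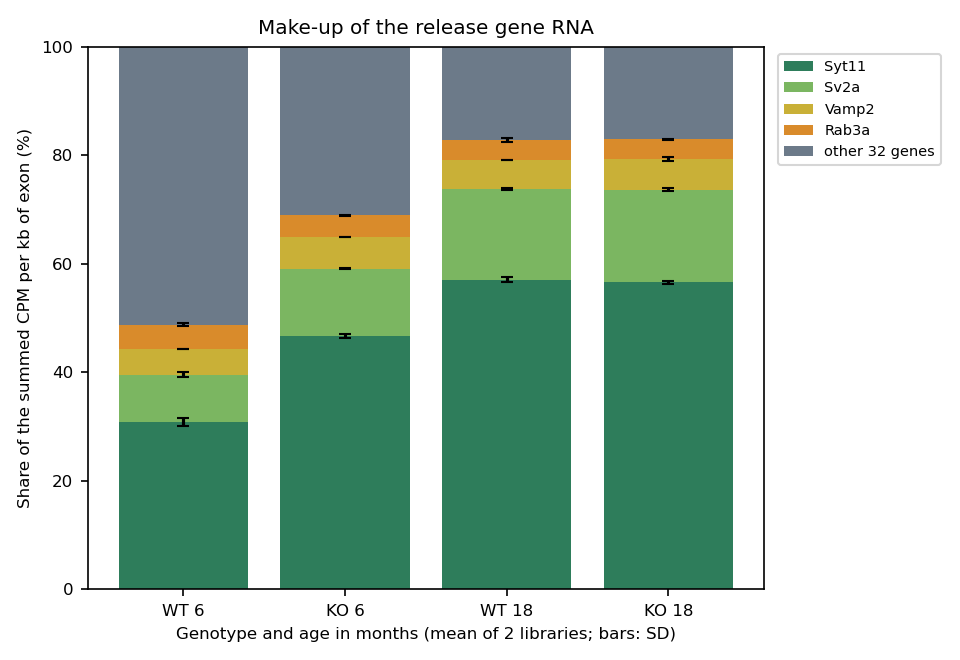
Share of the summed CPM per kb of exon of the 36 release genes taken by Syt11, Sv2a, Vamp2, Rab3a and the other 32 genes, as the mean of 2 libraries per group; error bars are SD and sit at the top of each named gene's segment. The lowest segment, Syt11, grows from 30.8% in WT at 6 months to 46.7% in KO at 6 months, then 57.1% and 56.6% in WT and KO at 18 months.

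KO was compared with WT at 6 months, as pools of sorted cells from mice of the 2 genotypes. With 1 pool per group and Dnmt1 RNA 1.32-fold lower in KO, an effect of Dnmt1 loss itself was not tested. Most release genes were lower in KO. Of the 36, 24 were lower and 3 higher (Syt11, Sv2a and Sv2b), and 9 did not pass the test at an adjusted p of 0.05. Over all genes tested 19.6% were lower and 19.2% higher. The median log2 difference of the members was -0.68, beside -0.0048 over all genes. In 9 members the fall was at least 2-fold, led by Nrxn3 at 4.38-fold, Sv2c at 3.55-fold and Ppfia2 at 3.25-fold, where 5.88% of all genes fell as far. The calls of Rab3a, Vamp1 and Syngr3 were lost under DESeq2 (adjusted p = 0.153, 0.0816 and 0.0627) and when single libraries were left out. At most, their adjusted p reached 0.249 without KO replicate 2 at 6 months, 0.255 without KO replicate 1 at 6 months and 0.443 without WT replicate 2 at 6 months.

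At 18 months fewer members were called between the genotypes. Lower were 17 and higher were 4 (Syt2, Vamp1, Syn2 and Unc13b), with 15 not called. Among all genes 17.4% were lower and 14.7% higher. The members' median log2 difference was -0.26, and that of all genes was 0 at this precision. Rph3a (2.49-fold lower), Rims1 (2.42-fold), Erc2 (2.25-fold), Syt1 (2.12-fold) and Bsn (2.08-fold) fell at least 2-fold, as did 1.47% of all genes. Counts at this age depended on scaling and, as given further below, on single libraries. Scaled to library totals without TMM, which moved the median of all genes by 0.14 on the log2 scale, 10 members were lower and 5 higher. Of all genes 1848 were then lower and 4268 higher, in place of 3165 and 2679. The members' median less that of all genes was -0.261 with TMM and with library totals. Without WT replicate 2 at 18 months the members' median was -0.218, beside 0.0204 over all genes.

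Age was compared within each genotype, WT and KO mice of 18 months against those of 6 months. In WT nearly the whole set was lower at 18 months. Lower were 33 members, higher were 2 (Syt11 and Sv2a), and 1, Vamp2, was not called. Over all genes 30.8% were lower and 28.2% higher. The median log2 difference was -1.48 for the members and -0.04 for all genes. At least 2-fold lower were 25 members, against 18.4% of all genes, with Sv2c (13.5-fold), Syt1 (9.84-fold), Nrxn3 (7.82-fold), Syt7 (7.67-fold) and Erc2 (7.35-fold) at the far end. All 35 calls were kept under each alternative run.

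KO cells showed an age difference of like direction in fewer genes. Lower at 18 months were 29 members and higher was 1, Sv2a, with 6 not called, beside 17.9% lower and 13.8% higher over all genes. The median log2 difference was -1.33 for the members and 0.0031 for all genes. In 19 members the fall was at least 2-fold, as in 6.54% of all genes, led by Syt1 (7.40-fold), Sv2c (6.02-fold), Bsn (5.98-fold) and Erc2 (5.86-fold). Sv2a lost its call without KO replicate 1 at 6 months (log2 difference 0.18, adjusted p = 0.0852). Syp, Rab3a, Syn2 and Vamp2 lost theirs without single KO libraries, with log2 differences as small as -0.321, -0.33, -0.254 and -0.205. The call of Syp also ended under DESeq2 (adjusted p = 0.192). By edgeR it ended under RLE scaling (adjusted p = 0.0541), library totals without TMM (0.138) and no filter (0.114). It ended without either WT library of 18 months too. The age comparisons reuse the libraries of the genotype comparisons, so these counts are not independent of each other.

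**Figure D3:**
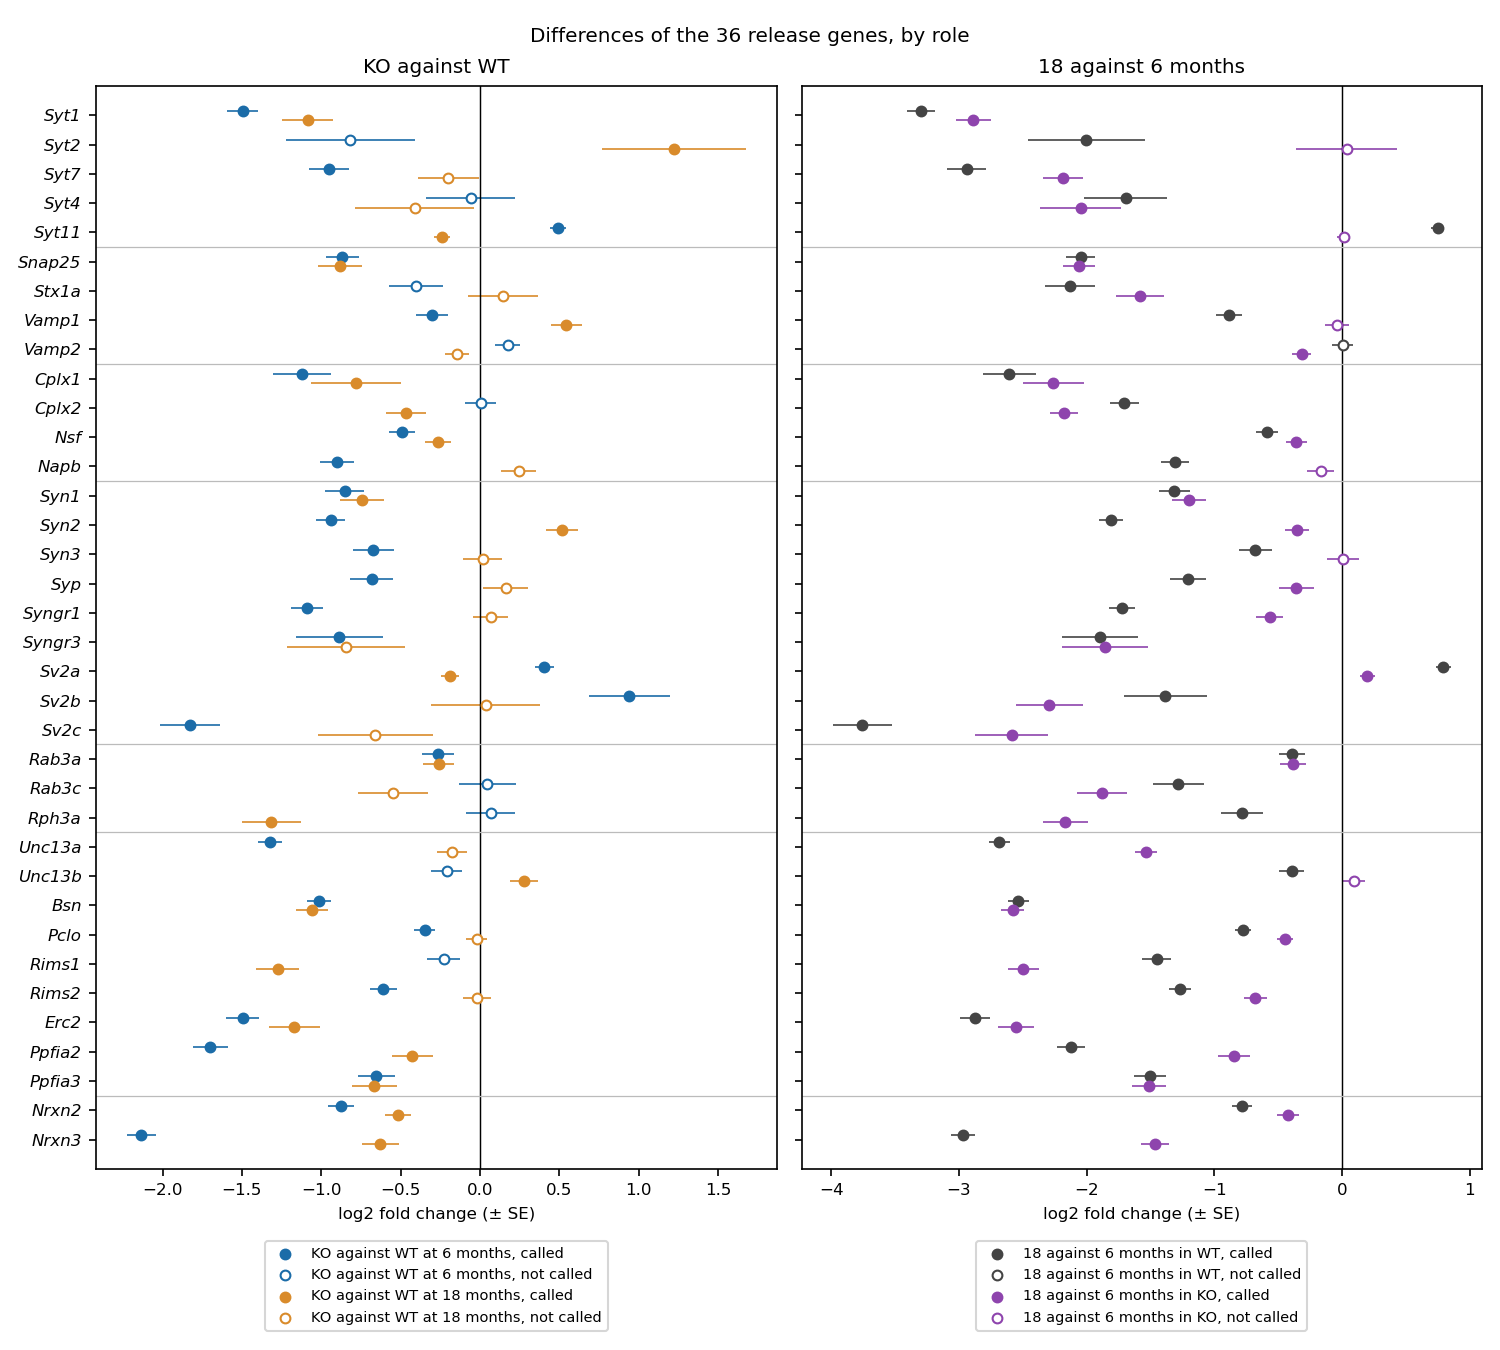
Log2 fold change with its SE from the edgeR model for each of the 36 release genes, grouped by role, for KO against WT (left, at 6 and 18 months) and 18 against 6 months (right, in WT and KO). Filled points passed an adjusted p of 0.05; most lie left of 0, out to -2.13 for Nrxn3 in KO at 6 months and -3.76 for Sv2c with age in WT, and Syt11 and Sv2a lie right of 0 in WT with age.

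Cell type markers differed between the groups as well. The parvalbumin interneuron list summed to 550 and 529 CPM in WT and 282 and 271 CPM in KO at 6 months, and to 282 and 272 CPM in WT and 243 and 256 CPM in KO at 18 months. Of its 10 tested genes 7 were lower and 2 higher in KO at 6 months, and 7 lower and 1 higher with age in WT. Sox6 and Erbb4, which are not exclusive to these cells, held much of that sum. Their means were 157 and 103 CPM in WT and 85.9 and 119 CPM in KO at 6 months. At 18 months they were 71.7 and 153 CPM in WT and 85.0 and 131 CPM in KO, so the sum can hide falls of other genes. Gad1, which makes GABA, had 125 and 132 CPM in the WT and 14.4 and 15.0 CPM in the KO libraries at 6 months, and 11.4 and 13.9 CPM in the WT and 6.87 and 6.04 CPM in the KO libraries at 18 months. Gad2, the other GABA-making enzyme, had 22.7 and 25.5 CPM in WT at 6 months, down to 1.30 and 1.29 CPM in KO at 18 months. The excitatory neuron list summed to 247 and 241, 223 and 236, 87.1 and 85.3, and 52.1 and 55.9 CPM for these groups in turn. Of its 9 tested genes 2 were lower in KO at 6 months and 5 at 18 months. With age 7 were lower in WT and 9 in KO, and 0 were higher in any of these comparisons. Oligodendrocyte markers summed to 13734 and 13762 CPM in WT and 30703 and 29889 CPM in KO at 6 months, and to 40115 and 40140 CPM in WT and 27545 and 27148 CPM in KO at 18 months. All 10 of them were higher in KO at 6 months and lower in KO at 18 months. Astrocyte markers summed to 11860 and 11794 CPM in the younger WT, 7200 and 7180 CPM in the younger KO, 4075 and 4114 CPM in the older WT and 8876 and 8844 CPM in the older KO libraries, and all 10 were lower in KO at 6 months and higher in KO at 18 months. Oligodendrocyte precursor markers summed to 4785 and 4839, 2899 and 3044, 3120 and 3170, and 2487 and 2587 CPM for the groups in that order. Of these 10, 7 were lower and 2 higher in KO at 6 months, and 8 lower and 1 higher in KO at 18 months. With age in WT 8 were lower and 2 higher. Microglia markers summed to 113 and 123, 155 and 158, 158 and 170, and 74.1 and 72.7 CPM, with 8 of 9 lower in KO at 18 months. Pericyte and smooth muscle markers summed to 2006 and 2034, 2344 and 2398, 913 and 925, and 1781 and 1743 CPM, with 8 of 8 lower with age in WT. Prl, the pituitary hormone prolactin, was at 0 reads in all 4 WT libraries and at 219 and 220.0 CPM in the younger and 53.4 and 58.7 CPM in the older KO libraries, while Lhb and Cga were at 0 throughout. The part of these markers in the release gene results was not tested.

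Of the 5 synaptotagmins 4 were lower with age in WT and 1, Syt11, was higher, beside 30.8% and 28.2% of all genes. The fast calcium sensor Syt1 (ENSMUSG00000035864, chr10:108497650-109010982) had 102 and 114 CPM in the WT and 36.8 and 40.1 CPM in the KO libraries at 6 months, and 11.5 and 10.6 CPM in the WT and 5.50 and 4.83 CPM in the KO libraries at 18 months. All 4 groups were apart, in falling order. The log2 difference of KO from WT was -1.50 ± 0.0965 (SE) at 6 months and -1.08 ± 0.16 at 18 months, with edgeR adjusted p = 9.47e-12 and 1.08e-05. Syt7, a slower, high-affinity sensor tied to facilitation and asynchronous release, had 50.4 and 59.5 CPM in the WT and 26.7 and 30.1 CPM in the KO libraries at 6 months, and 7.02 and 7.24 CPM in the WT and 7.25 and 5.09 CPM in the KO libraries at 18 months. It was 1.94-fold lower in KO at 6 months, and at 18 months the 2 genotypes overlapped (-0.20 log2, adjusted p = 0.461). Syt4, which lacks normal calcium binding, was 3.24-fold lower with age in WT and 4.14-fold in KO, and did not separate the genotypes at either age.

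Syt11, the most abundant member per length and also without calcium-dependent membrane binding, went against most of the set. It (ENSMUSG00000068923, chr3:88744700-88775164) had 779.7 and 741 CPM in the WT and 1069 and 1072 CPM in the KO libraries at 6 months, and 1295 and 1258 CPM in the WT and 1055 and 1106 CPM in the KO libraries at 18 months. KO libraries lay above WT at 6 months (1.41-fold higher, adjusted p = 3.19e-08) and below WT at 18 months (1.18-fold lower, adjusted p = 6.45e-04), a difference that was not called when libraries were scaled by their totals (log2 -0.0976, adjusted p = 0.163). With age it rose 1.68-fold in WT, and in KO the log2 difference was 0.01 ± 0.0507 (SE). Syt2, the sensor of fast inhibitory terminals, had 17 and 26 reads in WT and 14 and 20 in KO at 6 months, and 9 and 9 in WT and 19 and 31 in KO at 18 months. Its call in KO at 18 months (2.33-fold higher, edgeR adjusted p = 0.0413) ended under DESeq2 (adjusted p = 0.135). It also ended without KO replicate 2 (log2 0.733) or WT replicate 2 (log2 0.865) at 18 months, and without either KO library of 6 months.

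Of the 4 SNARE proteins 3 were lower with age in WT, where 30.8% of all genes were lower. Snap25, the plasma membrane SNARE with a pair of helices, had 101 and 119 CPM in the WT and 61.5 and 58.9 CPM in the KO libraries at 6 months, and 31.3 and 22.9 CPM in the WT and 15.3 and 13.4 CPM in the KO libraries at 18 months. It was 1.82-fold lower in KO at 6 months and 1.84-fold lower at 18 months, and 4.13-fold lower with age in WT and 4.18-fold in KO, with every group apart from the next. Stx1a, the syntaxin of the same complex, was 4.39-fold lower with age in WT and 3.00-fold in KO, and its genotype differences were not called. The vesicle SNAREs took different courses. Vamp2, the main one of forebrain synapses, had 88.6 and 86.1 CPM in the WT and 98.3 and 98.7 CPM in the KO libraries at 6 months, and 88.6 and 86.5 CPM in the WT and 73.2 and 85.1 CPM in the KO libraries at 18 months. Its 8 libraries thus lay between 73.2 and 98.7 CPM, and it alone of the 36 was not called with age in WT (0.00 log2, adjusted p = 0.978). Vamp1 had 51.9 and 49.7 CPM in the WT and 38.2 and 44.1 CPM in the KO libraries at 6 months, and 28.6 and 26.6 CPM in the WT and 39.4 and 40.6 CPM in the KO libraries at 18 months. KO was 1.24-fold lower than WT at 6 months and 1.46-fold higher at 18 months (adjusted p = 1.32e-04), and the KO libraries of the 2 ages overlapped.

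Complexins differed by isoform. Cplx1 had 20.2 and 19.8 CPM in the WT and 7.90 and 10.5 CPM in the KO libraries at 6 months, and 3.01 and 3.46 CPM in the WT and 1.68 and 2.16 CPM in the KO libraries at 18 months, and it was lower in KO at 6 months (2.18-fold) and with age in both genotypes (6.08-fold in WT, 4.79-fold in KO). Its call at 18 months (edgeR adjusted p = 0.0379) ended without any single library of that age but KO replicate 2. The log2 differences in these runs were -0.602 to -0.848. The call also ended under DESeq2 (adjusted p = 0.0876). By edgeR it ended under library totals without TMM (0.0877) and no filter (0.0612). Cplx2 had 54.6 and 52.5 CPM in the WT and 52.7 and 54.8 CPM in the KO libraries at 6 months, and 16.6 and 16.3 CPM in the WT and 12.7 and 11.04 CPM in the KO libraries at 18 months. At 6 months the genotypes overlapped (0.00 log2, SE 0.0982, adjusted p = 0.977), and with age Cplx2 fell 3.26-fold in WT and 4.51-fold in KO, and KO was 1.38-fold lower at 18 months (adjusted p = 0.00575, or 0.0595 without WT replicate 2 and 0.0779 without KO replicate 2 of that age, and 0.0533 under library totals without TMM). Nsf, the ATPase, had 79.3 and 77.5 CPM in WT at 6 months, down to 43.1 and 43.8 CPM in KO at 18 months. It was 1.40-fold lower in KO at 6 months and 1.20-fold lower at 18 months. The call at 18 months ended under DESeq2 (adjusted p = 0.055) and under library totals without TMM (0.292 by edgeR). It also ended without WT replicate 2 or either KO library of that age. Napb, the beta-SNAP adaptor, had 56.8 and 56.7 CPM in the WT and 30.9 and 30.0 CPM in the KO libraries at 6 months, and 21.2 and 24.1 CPM in the WT and 28.9 and 25.2 CPM in the KO libraries at 18 months. Napb was 1.86-fold lower in KO at 6 months and 2.48-fold lower with age in WT, and neither of its other 2 differences was called.

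Of the 9 vesicle membrane proteins and synapsins, 7 were lower and 2 higher in KO at 6 months, beside 19.6% and 19.2% of all genes. At 18 months 2 were lower, 1 was higher and 6 were not called. Of all genes 17.4% were lower and 14.7% higher at that age, so these few calls do not set this role apart. Sv2a (ENSMUSG00000038486, chr3:96181151-96195521), the SV2 protein found throughout the brain and the binding site of levetiracetam, had 200.5 and 183 CPM in the WT and 251 and 258 CPM in the KO libraries at 6 months, and 339 and 326 CPM in the WT and 289 and 294 CPM in the KO libraries at 18 months. It rose 1.73-fold with age in WT and 1.15-fold in KO. In KO it was 1.32-fold higher at 6 months and 1.14-fold lower at 18 months, a call not kept under library-total scaling (adjusted p = 0.596) or without WT replicate 1 (0.137), WT replicate 2 (0.0648) or KO replicate 1 (0.0708) of that age. Sv2c, a close relative with a narrower pattern in the brain, had 27.5 and 24.9 CPM in the WT and 7.33 and 7.40 CPM in the KO libraries at 6 months, and 2.51 and 1.54 CPM in the WT and 1.53 and 0.863 CPM in the KO libraries at 18 months. It was 3.55-fold lower in KO at 6 months (adjusted p = 2.86e-08), and its difference at 18 months was not called (adjusted p = 0.175). Sv2b, known from excitatory terminals, peaked in KO at 6 months at 8.36 and 8.00 CPM, against 4.12 and 4.39 in WT (1.92-fold, adjusted p = 0.00506), and was 4.90-fold lower with age in KO.

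Synapsins, which tether vesicles to actin and to each other, separated as well. Syn1 had 38.0 and 41.4 CPM in the WT and 21.4 and 22.6 CPM in the KO libraries at 6 months, and 15.9 and 16.01 CPM in the WT and 10.1 and 8.97 CPM in the KO libraries at 18 months, and was lower in KO by 1.81-fold at 6 months and 1.67-fold at 18 months. Syn2 had 84.6 and 87.6 CPM in the WT and 43.9 and 46.0 CPM in the KO libraries at 6 months, and 24.2 and 24.8 CPM in the WT and 32.8 and 37.5 CPM in the KO libraries at 18 months, and was 1.92-fold lower in KO at 6 months and 1.43-fold higher at 18 months (adjusted p = 9.66e-09 and 2.34e-04). Syn3 was 1.59-fold lower in KO at 6 months, and the other 3 groups lay between 16.7 and 17.7 CPM. These counts carry a doubt. Without a stated strand setting, reads of a gene and of an antisense neighbour cannot be told apart, and exons of Syn3 and Timp3 share 1733 bases, those of Syn2 and Timp4 90 and those of Syn1 and Araf 9. Syp, the synaptophysin of all small vesicles, and Syngr1 were 1.61-fold and 2.13-fold lower in KO at 6 months and were not called at 18 months (adjusted p = 0.412 and 0.681). Syngr3 had few reads and a wide spread, at 7.08 and 13.6 CPM in WT at 6 months, and was 3.72-fold lower with age in WT and 3.62-fold in KO.

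Rab3 proteins are the vesicle GTPases that bind RIM. Rab3a had 44.9 and 48.1 CPM in the WT and 39.5 and 38.0 CPM in the KO libraries at 6 months, and 33.4 and 37.2 CPM in the WT and 28.6 and 30.7 CPM in the KO libraries at 18 months, and its largest difference was 1.31-fold, with age in WT. Its call in KO at 18 months (1.20-fold lower, edgeR adjusted p = 0.0461) ended without any single library of that age. It also ended under DESeq2 (adjusted p = 0.138) and under library totals without TMM (0.394 by edgeR). Rab3c was 2.44-fold lower with age in WT and 3.68-fold in KO, and was not called between genotypes. Rph3a, the Rab3 effector rabphilin, had 17.4 and 18.8 CPM in the WT and 18.0 and 20.1 CPM in the KO libraries at 6 months, and 11.4 and 9.85 CPM in the WT and 3.74 and 4.74 CPM in the KO libraries at 18 months. WT and KO overlapped at 6 months (0.07 log2, adjusted p = 0.773), and KO was 2.49-fold lower at 18 months (adjusted p = 5.65e-06).

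At the active zone, all 9 scaffold and priming genes were lower with age in WT and 8 of 9 in KO. In KO at 6 months 7 of 9 were lower. Of all genes 30.8%, 17.9% and 19.6% were lower in these comparisons in turn. Bsn (ENSMUSG00000032589, chr9:108096022-108190384), the giant scaffold bassoon, had 196 and 187 CPM in the WT and 89.8 and 100.3 CPM in the KO libraries at 6 months, and 35.0 and 31.6 CPM in the WT and 15.8 and 15.96 CPM in the KO libraries at 18 months. Each group lay apart, KO being 2.02-fold lower at 6 months and 2.08-fold lower at 18 months. Pclo, its relative piccolo, had 176 and 171 CPM in the WT and 137 and 135 CPM in the KO libraries at 6 months, and 104 and 98.9 CPM in the WT and 97.5 and 102 CPM in the KO libraries at 18 months, with a smaller genotype difference at 6 months (1.27-fold) and none called at 18 months (-0.02 ± 0.0637 log2, SE). Erc2, an ELKS scaffold, had 94.6 and 83.7 CPM in the WT and 32.2 and 31.0 CPM in the KO libraries at 6 months, and 11.4 and 12.6 CPM in the WT and 5.80 and 4.92 CPM in the KO libraries at 18 months, and was 7.35-fold lower with age in WT. Ppfia2 and Ppfia3, liprins-alpha that bind ELKS and RIM, were 3.25-fold and 1.57-fold lower in KO at 6 months and 1.34-fold and 1.58-fold lower at 18 months. The Ppfia2 call at 18 months ended under library totals without TMM (edgeR adjusted p = 0.0976). It also ended without WT replicate 2 (log2 -0.376) or KO replicate 1 of that age (log2 -0.309). Ppfia2 shares 2436 antisense exon bases with Acss3.

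The priming factor Munc13-1, Unc13a (ENSMUSG00000034799, chr8:71624417-71671757), had 185 and 187 CPM in the WT and 72.4 and 76.3 CPM in the KO libraries at 6 months, and 26.7 and 30.5 CPM in the WT and 24.7 and 26.5 CPM in the KO libraries at 18 months. KO was 2.50-fold lower at 6 months (adjusted p = 1.06e-12), and at 18 months the WT and KO libraries were adjacent, with a log2 difference of -0.17 ± 0.0943 (SE) that was not called. Its exons share 495 antisense bases with Colgalt1. Munc13-2, Unc13b, had 51.4 and 48.6 CPM in the WT and 44.0 and 42.4 CPM in the KO libraries at 6 months, and 38.1 and 37.9 CPM in the WT and 48.1 and 43.8 CPM in the KO libraries at 18 months. Here KO was 1.21-fold higher at 18 months, a call that ended under DESeq2 (adjusted p = 0.0959). It also ended without 1 library of that age in 3 of 4 cases, with log2 differences from 0.206 to 0.292. The RIM proteins, which recruit calcium channels and Munc13, ran differently from each other. Rims1 had 47.9 and 48.7 CPM in the WT and 41.7 and 40.8 CPM in the KO libraries at 6 months, and 17.2 and 18.0 CPM in the WT and 6.87 and 7.76 CPM in the KO libraries at 18 months, with no call at 6 months (adjusted p = 0.0869) and a 2.42-fold fall in KO at 18 months (adjusted p = 8.59e-08). Rims2 had 85.3 and 96.7 CPM in the WT and 60.4 and 59.0 CPM in the KO libraries at 6 months, and 37.5 and 37.9 CPM in the WT and 36.2 and 38.4 CPM in the KO libraries at 18 months, which is a 1.52-fold fall in KO at 6 months and overlapping libraries at 18 months.

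Of the neurexins, Nrxn3 had the largest genotype difference among the 36 genes, at 6 months. It (ENSMUSG00000066392, chr12:88722876-90334935) had 187 and 172 CPM in the WT and 40.4 and 41.5 CPM in the KO libraries at 6 months, and 20.1 and 25.1 CPM in the WT and 15.3 and 14.3 CPM in the KO libraries at 18 months. The log2 difference of KO from WT was -2.13 ± 0.0894 (SE) at 6 months and -0.63 ± 0.12 at 18 months, with adjusted p = 1.05e-14 and 1.72e-04, the second rising to 0.0535 without WT replicate 2 at 18 months. Nrxn2 had 94.2 and 99.4 CPM in the WT and 51.4 and 54.0 CPM in the KO libraries at 6 months, and 55.8 and 56.4 CPM in the WT and 37.5 and 41.1 CPM in the KO libraries at 18 months, and was 1.84-fold and 1.43-fold lower in KO at the 2 ages.

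Ratios of related genes within a library describe these shifts without regard to scaling. Per length of exon, Unc13a over Unc13b was 6.50 and 6.92 in WT and 2.97 and 3.24 in KO at 6 months, and 1.26 and 1.45 in WT and 0.927 and 1.09 in KO at 18 months. Bsn over Pclo went from 1.57 and 1.55 through 0.921 and 1.05 and then 0.475 and 0.451 to 0.228 and 0.221 in the same order. In both pairs the groups did not overlap. Nrxn3 over Nrxn2 was 2.18 and 1.90 in WT and 0.861 and 0.844 in KO at 6 months, and all 4 libraries of 18 months lay between 0.382 and 0.487. Sv2a over Sv2c was 15.3 and 15.4 in WT but 71.5 and 72.8 in KO at 6 months, and lay between 282 and 713 at 18 months, where Sv2c had few reads. Rims1 over Rims2 was lowest in KO at 18 months (0.268 and 0.285), with the other 6 libraries between 0.647 and 0.977. Vamp1 over Vamp2 was 0.202 and 0.179 in KO at 18 months and 0.121 and 0.115 in WT of that age, and Syn1 over Syn2 was 0.654 and 0.510 against 1.40 and 1.38. A ratio shows unequal change and does not say which gene moved.

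**Figure D4:**
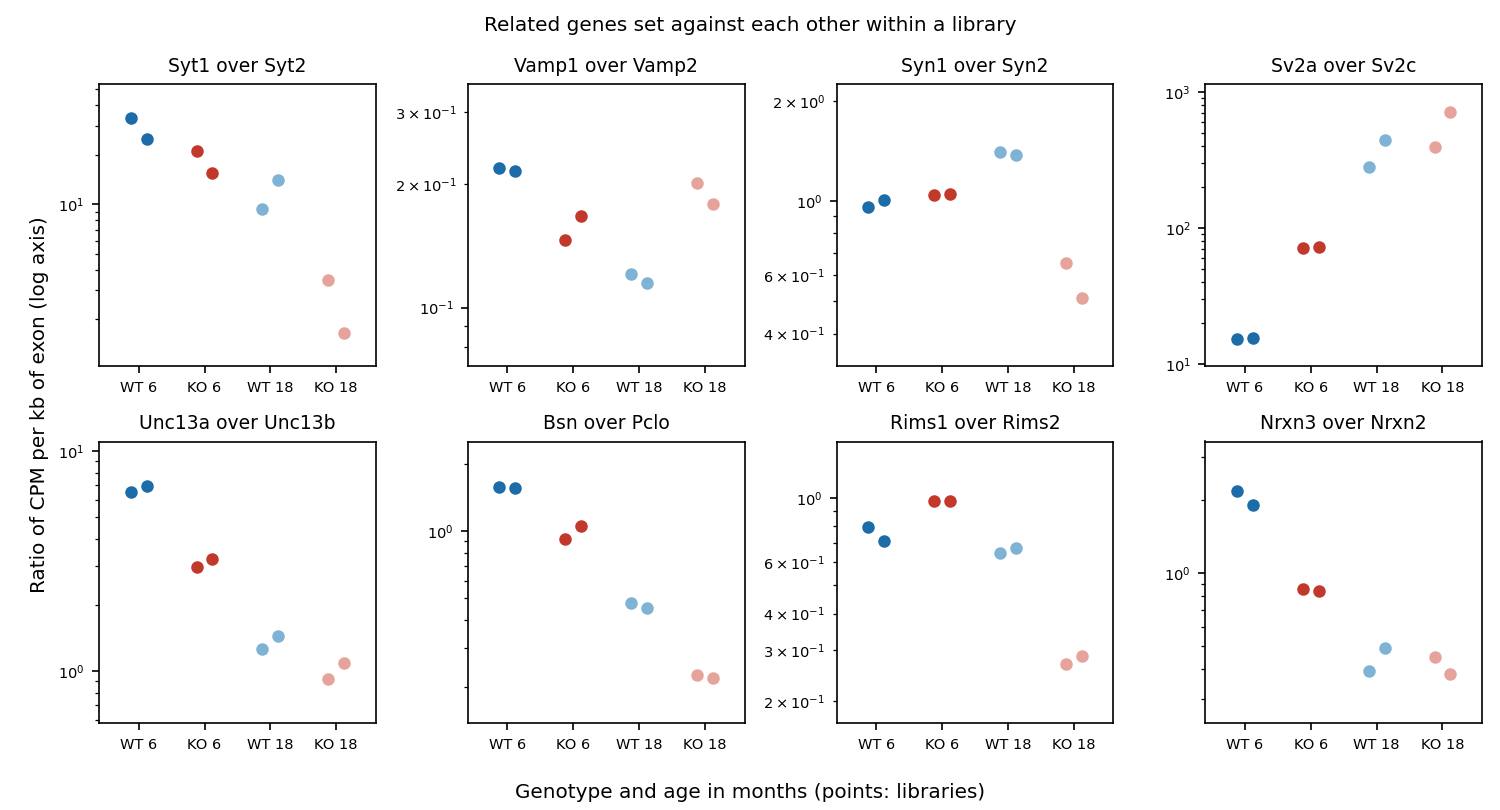
Ratio of CPM per kb of exon between related release genes within each library, on log axes that differ between panels; points are libraries, 2 for each genotype and age in months. Unc13a over Unc13b and Bsn over Pclo step down across the 4 groups, from 6.50 and 6.92 to 0.927 and 1.09 and from 1.57 and 1.55 to 0.228 and 0.221, while Sv2a over Sv2c steps up from 15.3 and 15.4.

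The genotype difference itself changed between ages in 22 members. Tested as the log2 genotype difference of the older mice less that of the younger, it was higher in 16 members and lower in 6, with 14 not called. Among all genes 18.4% were higher and 20.7% lower. Higher here means that KO lay less far below WT at 18 months than at 6 months, or passed from below WT to above it. Nrxn3 (1.50 ± 0.15, log2 and SE), Syn2 (1.46 ± 0.13) and Unc13a (1.15 ± 0.12) were among the higher. The log2 genotype difference changed sign between 6 and 18 months in Vamp1 (-0.30 and 0.54) and Syn2 (-0.94 and 0.52), among others. Lower were Syt11, Vamp2, Cplx2, Sv2a, Rph3a and Rims1, led by Rph3a at -1.38 ± 0.24 and Rims1 at -1.05 ± 0.17. The calls of Syt2, Syt7, Vamp2, Cplx2, Sv2c and Nrxn2 ended when single libraries were left out. Those of Vamp2, Cplx2, Sv2c and Nrxn2 also ended under DESeq2 (adjusted p = 0.0541, 0.0651, 0.0668 and 0.0803). For Syt1, Snap25, Cplx1, Nsf, Syn1, Rab3a, Bsn, Erc2 and Ppfia3, lower in KO at both ages, the change between ages was not called. In Bsn it was -0.05 ± 0.12, close to 0 beside its SE. Library-total scaling, which moved the median of all genes by 0.208, gave 20 higher and 4 lower, with Syt1, Stx1a, Nsf and Erc2 among the higher and Vamp2 and Cplx2 no longer called. The members' median less that of all genes was 0.321 with TMM and with library totals.

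The wider presynaptic list of 57 genes, which holds no member, had more lower than higher genes in all 4 comparisons. Of its 55 tested genes 27 (49.1%) were lower and 13 (23.6%) higher in KO at 6 months, beside 19.6% and 19.2% of all genes. At 18 months 18 (32.7%) were lower and 4 (7.27%) higher, beside 17.4% and 14.7%. With age 32 (58.2%) were lower and 17 (30.9%) higher in WT, beside 30.8% and 28.2%, and 25 (45.5%) lower and 5 (9.09%) higher in KO, beside 17.9% and 13.8%. The shares higher at 6 months and with age in WT were thus near those of all genes. Its medians were -0.36, -0.25, -0.84 and -0.24 log2 in that order. Slc17a6, Slc17a7 and Slc32a1 of this list are cell type markers too. Other synaptotagmins and calcium sensors were lower in 8 of 10 cases in KO at 6 months and in 9 of 10 with age in WT, and other Rab and active zone genes in 8 and 10 of 13. Vesicle endocytosis genes were split, 3 higher and 3 lower of 8 in KO at 6 months and 4 and 4 with age in WT. Other vesicle proteins were 4 higher and 2 lower of 9 in KO at 6 months, and 5 and 3 with age in WT. For other SNAREs and their regulators it was 4 higher and 5 lower of 11 tested, then 5 and 4. Vesicular transmitter transporters had 1 higher and 1 lower of 4 tested, then 1 and 2.

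Single genes of that list show the split. Dnm1, the neuronal dynamin that pinches off vesicles, had 148 and 166 CPM in the WT and 58.7 and 64.7 CPM in the KO libraries at 6 months, and 26.3 and 28.7 CPM in the WT and 12.5 and 14.0 CPM in the KO libraries at 18 months, each group apart from the next. Its relative Dnm3 went the other way, 1.88-fold higher in KO at 6 months, 3.07-fold higher with age in WT and 1.40-fold in KO. The membrane-bending protein Bin1 was 1.796-fold higher in KO at 6 months, 1.33-fold lower at 18 months and 2.12-fold higher with age in WT. Sypl, a synaptophysin relative found outside neurons as well, was 2.05-fold higher in KO at 6 months and 3.01-fold with age in WT. Syt6 fell from 31.6 and 43.9 CPM in WT to 3.55 and 3.70 CPM in KO at 6 months, which is 10.4-fold. At 18 months Erc1 (1.54-fold) and Unc13c (1.48-fold) were higher in KO and Scamp5 (1.39-fold), a secretory carrier protein, was lower. Rimbp2, which links RIM to calcium channels, was 6.15-fold lower with age in WT and 5.13-fold in KO. In KO the glutamate transporter Slc17a7 was 7.98-fold lower with age.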

How the data were processed

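RNA-seq was analysed in 8 libraries of 4 groups (WT and KO at 6 and 18 months, 2 libraries each). The authors deposited raw counts of reads for each gene. Their tools, per the submitters' processing notes, were STAR 2.5.2a, featureCounts 1.5.0-p1 and CASAVA 1.8.2, with the mm10 build. Strand setting, treatment of multiply mapped reads and annotation release were not given in the sources used here. Symbols and exon lengths came from GENCODE M21 of the same build, which named 55394 of 55573 IDs (99.7%), and promoters from RefSeq on GRCm38.p6. Unnamed IDs took no more than 0.024% of any library.

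The tests were edgeR's quasi-likelihood F tests (edgeR 4.0.16, R 4.3.3, TMM, filterByExpr at a count minimum of 10, Benjamini-Hochberg adjustment over 18205 genes, threshold 0.05), with all 4 groups in 1 model (4 residual degrees of freedom, common coefficient of variation 0.0539). The SE is the log2 fold change divided by the square root of F. The tested genes held at least 99.72% of a library's counts. Alternatives were DESeq2 1.42.0, other scalings, no filter, the compared groups alone, a replicate block, leaving out each library, and leaving out Gm26917 with the mitochondrial genes, which together differed in share between libraries (Gm26917 from 1.67% to 9.97% of counts).

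All 36 members are named. Of the wider presynaptic list, the 3 higher and 3 lower called genes with the smallest p in each comparison are named, Dnm1 among them, apart from a few results that are not reported here. Members and lists were chosen with earlier results of these data known. Same-numbered libraries were not treated as pairs in the main model. The correlations of same-numbered deviations ran from -5.24e-06 to 0.0758. Count noise can also keep these low, so they do not show whether the numbers pair the libraries. A ratio of each member to the summed neuron markers was planned and is not given, because Mapt, Map2 and Elavl3 held most of that sum. No molecular identifiers are mentioned for these reads.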

Additional observations from a re-analysis of the deposited data

Results flagged for a closer look

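The genotype difference differed between the ages in 22 of the 36 release genes, by edgeR's test of the change itself (the log2 genotype difference at 18 months less that at 6 months, 2 libraries per group). The change was higher in 16 members (44.4%), beside 18.4% of all genes. It was lower in 6 (16.7%), which is not above the 20.7% of all genes. Among synaptotagmins and SNAREs the change was 2.04 for Syt2 (on 9 to 31 reads per library), 0.753 for Syt7, 0.848 for Vamp1, -0.734 for Syt11 and -0.320 for Vamp2. Complexin and disassembly genes gave -0.470 for Cplx2 and 1.14 for Napb. Vesicle membrane proteins and synapsins gave 1.46 for Syn2, 0.688 for Syn3, 0.845 for Syp, 1.16 for Syngr1, 1.17 for Sv2c and -0.594 for Sv2a. The Rab3 effector Rph3a gave -1.38.

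At the active zone the change was 1.15 for Unc13a, 0.487 for Unc13b, 0.328 for Pclo, 0.591 for Rims2, 1.27 for Ppfia2 and -1.05 for Rims1. The neurexins gave 0.360 for Nrxn2 and 1.50 for Nrxn3. Without single libraries the adjusted p rose to 0.0968 for Syt2 (KO replicate 2 at 18 months), 0.209 for Syt7, 0.148 for Vamp2 and 0.404 for Sv2c (KO replicate 1 at 18 months), and 0.117 for Cplx2 and 0.095 for Nrxn2 (KO replicate 2 at 18 months). Opposite calls at the 2 ages, lower in KO at 6 months and higher at 18 months, were made for Vamp1 and Syn2, and the reverse for Syt11 and Sv2a. The call of Vamp1 at 6 months ended without KO replicate 1 (adjusted p = 0.255) or WT replicate 1 (0.103) of that age, under DESeq2 (0.0816) and with no filter (0.0692). Those of Syt11 and Sv2a at 18 months ended under library totals without TMM (0.163 and 0.596), and that of Sv2a also without WT replicate 1 (0.137), WT replicate 2 (0.0648) or KO replicate 1 (0.0708) of that age. The oligodendrocyte and astrocyte marker lists also turned between the ages, with 10 of 10 oligodendrocyte markers higher in KO at 6 months and lower at 18 months and 10 of 10 astrocyte markers the other way round. Their part in these changes was not tested.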

How the results depend on the processing

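No member reversed direction while called under any alternative. Calls were kept under every alternative by 24 of 27 called members for KO against WT at 6 months, 11 of 21 at 18 months, 35 of 35 with age in WT, 25 of 30 with age in KO and 16 of 22 for the change between ages. For KO against WT at 18 months, DESeq2 called 2 members and 1706 genes higher, in place of 4 and 2679. Library totals without TMM gave 10 members and 1848 genes lower and 4268 genes higher, in place of 17, 3165 and 2679. Leaving out each library in turn gave 2 to 4 members higher, 10 to 19 lower and 1931 to 3407 genes lower, with the lowest counts of members and of genes lower without WT replicate 2 at 18 months. For age in KO, DESeq2 called 1551 genes higher and library totals 3839, in place of 2512. Leave-one-out counts there ran from 0 to 1 members higher, 1252 to 2791 genes higher and 2003 to 3495 lower. The member's call ended without KO replicate 1 at 6 months, and the gene counts fell most without KO replicate 2 at 6 months (1252 and 2003) and KO replicate 1 at 18 months (1386 and 2154). The cause was not tested. With 1 library left, a group was assumed to vary like the others.

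A replicate block was also run, though it is not known whether the numbers pair the libraries. It gave 3 members higher and 24 lower at 6 months, and 4 and 18 at 18 months. With age it gave 2 and 33 in WT and 1 and 29 in KO, and for the change between ages 16 and 6. Its added call was Rab3c in KO at 18 months (log2 -0.57, edgeR adjusted p = 0.0446). Counts of all genes under this block are not given here. Depth limits Syt2, Syt4, Syngr3, Sv2b and Sv2c most.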

Other observations

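Of the 15 genes written down as neuron markers, 6 were lower and 2 higher in KO at 6 months, and 6 lower and 1 higher at 18 months. With age 10 were lower and 3 higher in WT, and 13 lower and 0 higher in KO. Mapt, Map2 and Elavl3 held 81.0% to 93.7% of the summed CPM of that list. Mapt ran opposite to most release genes in KO at 6 months and with age in WT. It had 547 and 548 CPM in the WT and 908 and 919 CPM in the KO libraries at 6 months, and 1142 and 1137 CPM in the WT and 848 and 879 CPM in the KO libraries at 18 months. Rbfox3, the neuronal nuclear protein NeuN, had 42.6 and 38.98 CPM in the WT and 14.3 and 13.1 CPM in the KO libraries at 6 months, and 2.13 and 2.54 CPM in the WT and 1.15 and 1.55 CPM in the KO libraries at 18 months. Erbb4 of the parvalbumin interneuron list likewise was highest in WT at 18 months, at 155 and 149.8 CPM against 102 and 103 CPM at 6 months.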
